A study of Rattus norvegicus with 30 samples.

Results

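Glycerol and glycerol-3-phosphate metabolism was followed through 6 genes in primary rat hepatocytes exposed to clofibrate. The genes were the glycerol channels Aqp3, Aqp7 and Aqp9, glycerol kinase (Gk), and the cytosolic and mitochondrial glycerol-3-phosphate dehydrogenases (Gpd1 and Gpd2). A probe set was taken for a gene where the platform annotation gave that gene as its single symbol. All 6 genes, of 14218 named on the array, were found this way, through 9 probe sets, and the brightest probe set of each gene over the 30 arrays carries the results.

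Glycerol released from fat enters hepatocytes through aquaglyceroporins, channels that pass glycerol as well as water, and Aqp9 is the channel best known in hepatocytes. Glycerol kinase phosphorylates it to glycerol-3-phosphate, which is either acylated to make triglyceride and phospholipid or oxidised to dihydroxyacetone phosphate on the way to glucose. Gpd1 carries out that oxidation in the cytosol with NAD, while Gpd2, on the inner mitochondrial membrane, passes the electrons to ubiquinone, and the pair form the glycerol phosphate shuttle. Clofibrate is a fibrate, a lipid-lowering drug whose acid activates the nuclear receptor PPAR-alpha.

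The cells were frozen hepatocytes of male Sprague Dawley rats, bought from a supplier, thawed, plated on collagen under a Matrigel overlay and dosed on day 3 of culture. Each of the 6 groups held 5 separate wells, hybridised to 1 Affymetrix array each. At 24 h the groups were vehicle (labelled 1% DMSO), 60 uM clofibrate and 1000 uM clofibrate, and at 48 h the same 3 treatments. The sources used here state neither the age nor the number of the rats, and the p-values therefore reflect only well-to-well spread, which may be technical. In cultures of whole wells, fewer cells of a type and less RNA per cell cannot be told apart.

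Signals were the deposited MAS5 values, scaled on each array to a common level (a trimmed mean of 1500.6 to 1500.7), so a change in total RNA per cell is not visible, and 5 arrays a group set the limit of precision. All 8 hepatocyte markers were above the floor in all 6 groups, the floor being the brightest of 3 bacterial TrpnX probe sets on an array, averaged over a group (log2 5.70 to 6.31). The summed hepatocyte signal was 577171 to 646896 in DMSO and 486422 to 539546 at 1000 uM at 24 h, and 525241 to 629750 and 475421 to 500131 at 48 h. Of these 8 markers, 6 passed as lower in limma at 1000 uM at 24 h and 4 at 48 h, and none as higher. Tat, a liver enzyme of tyrosine breakdown, went from a mean of 22136 to 11526 at 24 h and from 20556 to 8276 at 48 h, while Alb lay between group means of 77260 and 87492. Other cell types were read at 1000 uM at 24 and 48 h. Of 3 tested endothelial markers, 0 and 1 passed as higher and none as lower. Of 5 stellate cell markers, 1 passed as lower at each time and none as higher. Of 3 red blood cell markers, 1 and 0 passed as higher and none as lower. The 1 bile duct marker tested, Epcam, passed as lower at both times (-0.44 and -0.43 on the log2 scale). The part of all these markers in the results for the 6 genes was not tested. The DMSO 48 h replicate 1 array stood apart, with a residual SD of 0.336 against 0.243 to 0.297 on the others. The GAPDH 3'/5' signal ratio had group means of 1.14 to 1.18. The beta-actin 3'/5' ratio was 2.42 ± 0.15 in DMSO and 2.56 ± 0.15 at 1000 uM at 24 h, and 2.33 ± 0.15 and 2.48 ± 0.17 at 48 h (SD, n = 5), and its part in the results was not tested.

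The channels moved in both directions, whereas the kinase and both dehydrogenases rose at each dose and time. Of the 6 genes, 5 passed the filter on low signals (a mean signal above the 40th percentile, 255) and entered the limma fit; Aqp3 did not, because it lay under the floor in 3 of the 6 groups. At 60 uM for 24 h all 5 tested genes passed an adjusted p of 0.05, 4 higher and Aqp9 lower, where 8.32% of 10627 tested genes passed. The same 5 passed in the same directions at 1000 uM for 24 h (33.9% of all genes), at 60 uM for 48 h (11.5%) and at 1000 uM for 48 h (43.9%). They also did so between 1000 and 60 uM at 24 h (21.6% of all genes) and at 48 h (30.5%). The median change over all tested genes was between -0.06 and -0.01 in these 6 comparisons. The comparisons at one time share their DMSO arrays and are not independent of each other. The genes were chosen with earlier results of these data known, so the shares of all genes give a scale and no test.

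**Figure D1:**
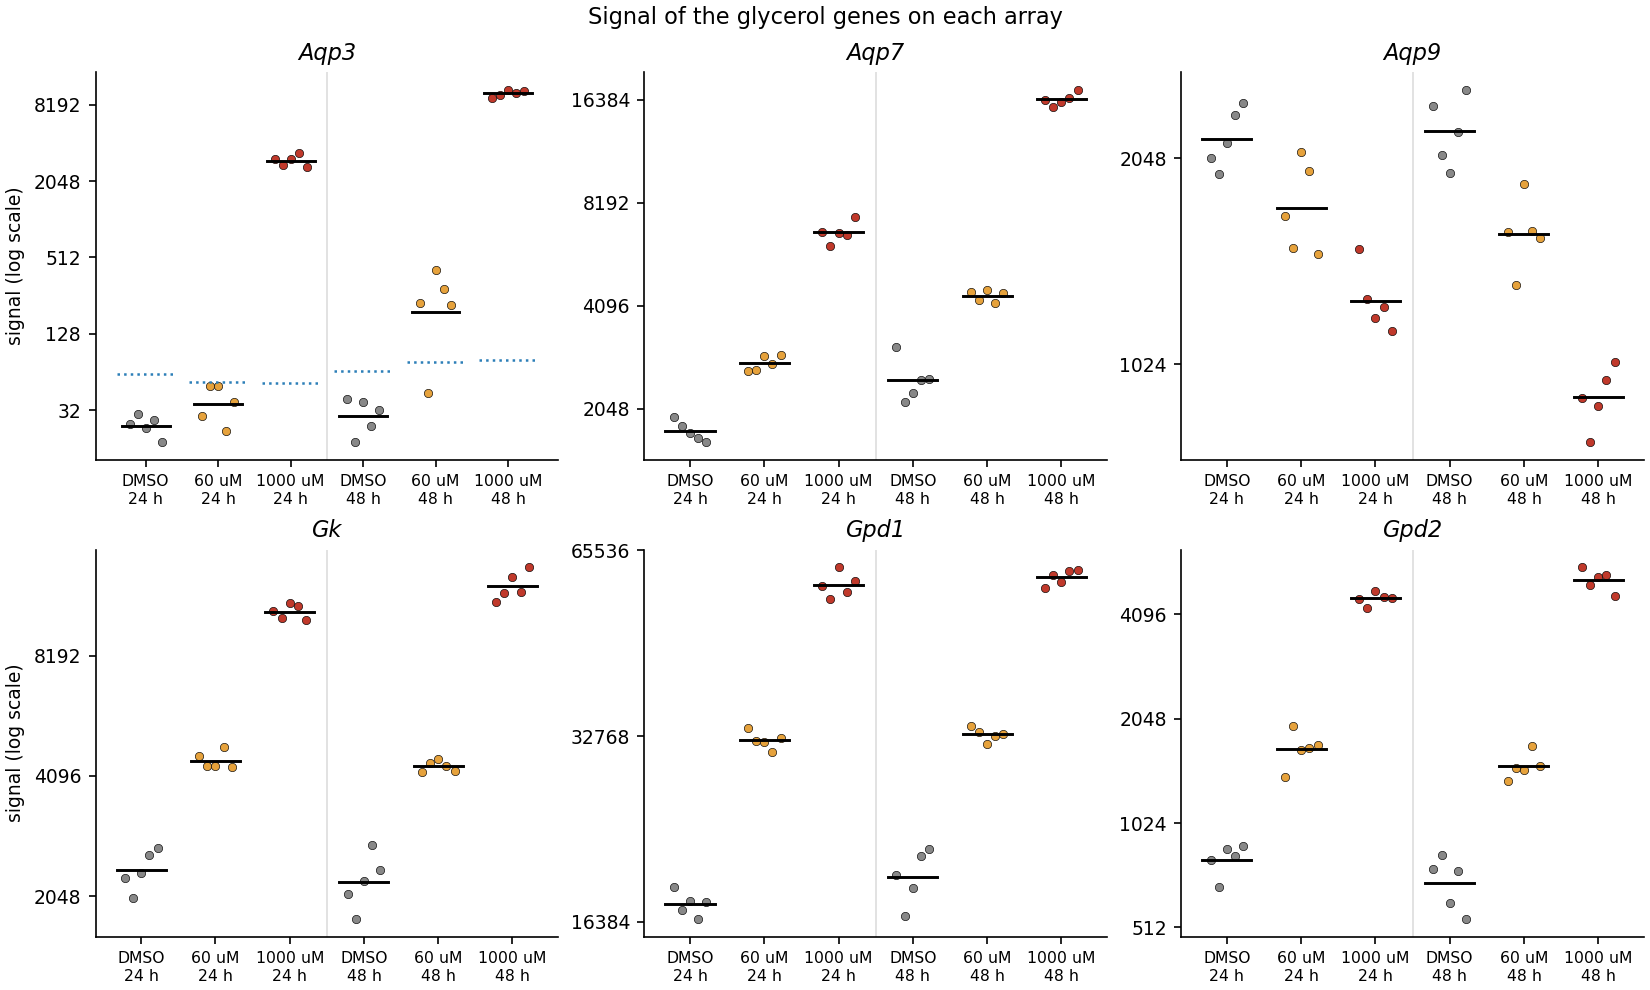
MAS5 signal (log scale) of the brightest probe set of each gene on each of 30 arrays, in 6 groups of 5 wells; black bars are group means of log2 signal, and dotted blue bars on the Aqp3 panel are the TrpnX floor. Aqp3 lies under the floor in both DMSO groups and at 60 uM for 24 h, and Aqp9 alone falls with dose.

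Aqp3, a channel for water and glycerol, had the widest range of the 6 genes: it went from below the floor in vehicle to a mean signal of 10106. At 24 h the Aqp3 signals were 25, 30, 23, 27 and 18 in DMSO, 29, 50, 50, 22 and 37 at 60 uM, and 3030, 2733, 3063, 3410 and 2637 at 1000 uM. All 5 arrays at 1000 uM were far above all others at 24 h, while DMSO and 60 uM overlapped and both lay under the floor (0 and 1 of 5 arrays above their own floor). The 1000 uM mean of 2975 ± 305 (SD, n = 5) was at least 48.2-fold higher than DMSO, with the floor standing for the vehicle level, and at least 47.0-fold higher than 60 uM. No fold is given for 60 uM at 24 h, where both groups were under the floor.

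At 48 h the Aqp3 signals were 39, 18, 37, 24 and 32 in DMSO, 224, 44, 405, 289 and 215 at 60 uM, and 9316, 9806, 10716, 10146 and 10544 at 1000 uM. The groups no longer overlapped, although replicate 2 at 60 uM (44) stayed under its own floor while the other 4 were above theirs. Aqp3 was at least 2.90-fold higher at 60 uM (235 ± 131, SD, n = 5) and at least 154-fold higher at 1000 uM (10106 ± 566, SD, n = 5) than DMSO, and 1000 uM was at least 49.6-fold higher than 60 uM. Leaving out each array in turn gave bounds of 2.40 to 4.18 for 60 uM, the highest without replicate 2. For 1000 uM they were 142 to 173 at 48 h and 45.3 to 53.3 at 24 h.

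Aqp3 was tested by limma in the alternative without a filter on low signals. There the adjusted p at 24 h was 0.582 for 60 uM and 4.48e-16 for 1000 uM, and the adjusted p at 48 h was 3.24e-06 for 60 uM and 1.94e-18 for 1000 uM. These p-values rest on DMSO signals under the floor. The Aqp3 fit uses 1 estimate of spread for all 6 groups, whose SDs ran from 0.08 to 1.23 on the log2 scale. The largest SD was that at 60 uM for 48 h, so the shared SE does not describe each group. Within 1000 uM, both of whose groups were above the floor, the Aqp3 rise from 24 to 48 h was 1.77 ± 0.37 on the log2 scale (SE, n = 5 and 5, limma adjusted p = 0.000753). Whether the 1000 uM effect itself differed between the times did not pass (limma adjusted p = 0.104), and that test rests on vehicle signals under the floor.

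Aqp7, the aquaglyceroporin best known from adipocytes, where it lets glycerol out, rose with dose and also with time. At 24 h its signals were 1935, 1817, 1740, 1686 and 1637 in DMSO, 2633, 2660, 2914, 2767 and 2938 at 60 uM, and 6720, 6124, 6663, 6608 and 7445 at 1000 uM. At 48 h they were 3090, 2135, 2279, 2485 and 2503 in DMSO, 4491, 4241, 4552, 4161 and 4453 at 60 uM, and 16314, 15588, 16152, 16549 and 17490 at 1000 uM. The 3 treatments did not overlap at either time, and the only neighbours in the order of all 6 groups that did were DMSO at 48 h and 60 uM at 24 h.

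Against DMSO, the log2 change of Aqp7 was 0.66 ± 0.07 at 60 uM and 1.93 ± 0.07 at 1000 uM at 24 h (SE, n = 5 and 5; limma adjusted p = 1.46e-08 and 4.01e-21). At 48 h it was 0.82 ± 0.07 and 2.73 ± 0.07 (limma adjusted p = 9.38e-11 and 3.30e-25), the last a 6.62-fold rise. From 1000 against 60 uM the change was 1.27 at 24 h and 1.91 at 48 h. Adipocyte markers were read beside it, and 5 of the 6 were on the array. Adiponectin (Adipoq) had group means of 161 to 309 and leptin (Lep), under the floor in all 6 groups, 34.4 to 52.5. The summed list was 4855 to 5552 in DMSO and 7765 to 8850 at 1000 uM at 24 h, and 5718 to 6468 and 10281 to 12058 at 48 h, mostly through the lipid droplet gene Cidec (group means 4205 to 9700). Of the 3 list genes tested, Cidec and Cfd passed as higher in limma at 1000 uM at both times. Cfd, which encodes the secreted protease adipsin, had means of 475 in DMSO and 634 at 1000 uM at 24 h, and 404 and 884 at 48 h. Plin1, the third, had group means of 243 to 318 and did not pass. The part of that list in the Aqp7 result was not tested.

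Aqp9, the main glycerol entry channel described for hepatocytes, was the 1 gene of the 6 that fell. At 24 h the Aqp9 signals were 2049, 1940, 2158, 2366 and 2467 in DMSO, 1686, 1515, 2093, 1964 and 1484 at 60 uM, and 1507, 1274, 1196, 1243 and 1146 at 1000 uM. At 24 h the 1000 uM arrays were all below the DMSO arrays, and the 60 uM arrays overlapped both. At 48 h the signals were 2443, 2071, 1949, 2240 and 2577 in DMSO, 1598, 1335, 1879, 1602 and 1565 at 60 uM, and 914, 789, 890, 973 and 1032 at 1000 uM. The 3 treatments were then fully apart, the lowest DMSO array (1949) lying just above the highest 60 uM array (1879).

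The log2 change of Aqp9 at 24 h was -0.34 ± 0.10 at 60 uM and -0.79 ± 0.10 at 1000 uM (SE, n = 5 and 5; limma adjusted p = 0.0474 and 2.85e-07). The 60 uM call at 24 h lay at the threshold and was lost in 13 of 19 alternatives, with adjusted p-values of 0.0170 to 0.414 over all of them in limma. At 48 h the change was -0.50 ± 0.10 at 60 uM and -1.29 ± 0.10 at 1000 uM (limma adjusted p = 0.00115 and 4.46e-12), the latter 2.45-fold lower. The summed signal of Kupffer cell and macrophage markers, over 6 of 8 genes on the array, was 10442 to 12127 in DMSO and 7764 to 9550 at 1000 uM at 24 h, and 9193 to 10556 and 6263 to 7232 at 48 h. Most of that sum was lysozyme (Lyz2), with means of 7584 and 5080 at 24 h and 7598 and 4198 at 48 h. It was the 1 gene of the 4 tested that passed as lower in limma at 1000 uM at each time, and the other 3 did not pass. In DMSO and at 1000 uM, Cd68 had means of 1774 and 1686 at 24 h and 1283 and 1424 at 48 h. Those of C1qa were 866 and 876 at 24 h and 490 and 483 at 48 h, and those of Clec4f 662 and 649, and 381 and 415. Cd163, not tested, had 252 and 238 at 24 h and 205 and 163 at 48 h. The macrophage marker Adgre1 was above the floor in 1 of 6 groups, and the list's part in the Aqp9 result was not tested.

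Glycerol kinase, which commits glycerol to the cell by phosphorylating it, rose at both doses. At 24 h the Gk signals were 2277, 2030, 2339, 2593 and 2706 in DMSO, 4590, 4339, 4326, 4840 and 4305 at 60 uM, and 10615, 10205, 11069, 10887 and 10057 at 1000 uM. At 48 h they were 2072, 1794, 2230, 2756 and 2386 in DMSO, 4181, 4406, 4503, 4325 and 4219 at 60 uM, and 11171, 11736, 12875, 11809 and 13648 at 1000 uM. Treatments did not overlap at either time. The DMSO groups of the 2 times overlapped, as did the 60 uM groups, while the 1000 uM arrays at 48 h were all above those at 24 h. The log2 change of Gk was 0.91 ± 0.08 at 60 uM and 2.15 ± 0.08 at 1000 uM at 24 h (SE, n = 5 and 5; limma adjusted p = 2.50e-10 and 9.83e-21). At 48 h it was 0.96 ± 0.08 and 2.46 ± 0.08 (limma adjusted p = 7.45e-11 and 2.05e-22), or 4.44-fold and 5.49-fold for 1000 uM at 24 and 48 h.

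Gpd1, the cytosolic enzyme that interconverts glycerol-3-phosphate and dihydroxyacetone phosphate, stood at the 98.8th percentile of all probe sets by mean signal and rose at both doses. Its 24 h signals were 18645, 17121, 17702, 16549 and 17623 in DMSO, 33820, 32214, 32047, 30845 and 32484 at 60 uM, and 57321, 54754, 61592, 56104 and 58431 at 1000 uM. Its 48 h signals were 19532, 16721, 18623, 20941 and 21534 in DMSO, 34063, 33324, 31771, 32764 and 33036 at 60 uM, and 56920, 59807, 58289, 60705 and 60938 at 1000 uM. Each treatment overlapped itself across the 2 times and no other treatment. The log2 change was 0.88 ± 0.05 at 60 uM and 1.72 ± 0.05 at 1000 uM at 24 h (SE, n = 5 and 5; limma adjusted p = 2.03e-15 and 5.13e-24). At 48 h the Gpd1 change was 0.77 ± 0.05 and 1.61 ± 0.05 (limma adjusted p = 7.35e-14 and 2.03e-23). The brightest signal of any probe set was at least 95378 on each array, and whether the Gpd1 signals at 1000 uM were compressed was not tested.

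Gpd2, the mitochondrial enzyme that feeds electrons from glycerol-3-phosphate into the respiratory chain, had the largest change at 1000 uM among the 5 tested genes at both times, by its brighter probe set. At 24 h its signals were 799, 672, 864, 822 and 880 in DMSO, 1394, 1958, 1666, 1691 and 1715 at 60 uM, and 4547, 4278, 4796, 4604 and 4568 at 1000 uM. At 48 h they were 753, 831, 604, 747 and 541 in DMSO, 1350, 1479, 1460, 1711 and 1494 at 60 uM, and 5608, 4977, 5249, 5318 and 4632 at 1000 uM. The treatments were again apart at each time, and the same treatment overlapped across times. The log2 change of Gpd2 was 1.06 ± 0.10 at 60 uM at 24 h and 1.12 ± 0.10 at 48 h (SE, n = 5 and 5; limma adjusted p = 1.05e-09 and 2.36e-10). At 1000 uM it was 2.50 at 24 h and 2.91 ± 0.10 at 48 h (limma adjusted p = 4.92e-20 and 6.47e-22), 5.67-fold and 7.49-fold.

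**Figure D2:**
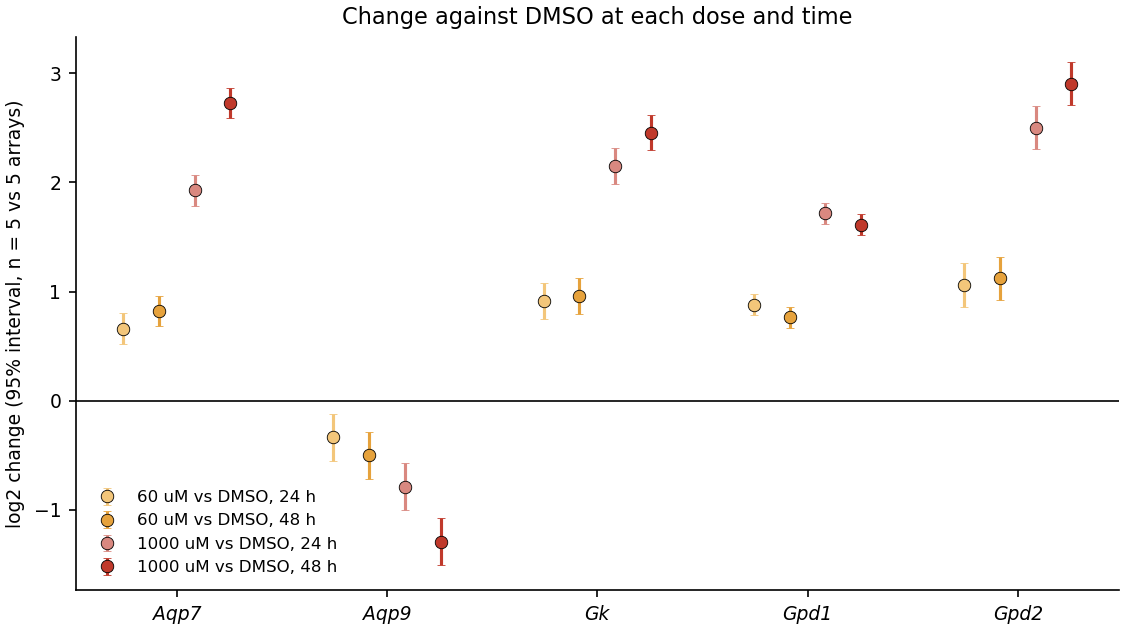
Log2 change against DMSO at each dose and time for the 5 tested genes (points) with 95% intervals from limma, 5 arrays against 5. Aqp7, Gk, Gpd1 and Gpd2 lie above 0 and Aqp9 below it throughout, and the 1000 uM points lie farther from 0 than the 60 uM points.

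The response to 60 uM was smaller than that to 1000 uM in each tested gene at both times. On the log2 scale the 60 uM change of Gpd1 was 51.3% of the 1000 uM change at 24 h and 47.5% at 48 h, the highest shares of the 5 tested genes by their brightest probe sets. Aqp7 had the lowest of these, 34.2% and 30.1%. Gk (42.4% and 39.0%), Gpd2 (42.3% and 38.6%) and Aqp9 (42.8% and 38.7%) lay between them. The order was another with the dimmer probe sets, whose shares were 41.0% and 40.6% for Gpd1, 53.9% and 23.5% for Gk, and 26.8% and 19.0% for Gpd2. These shares are descriptions, and their differences were not tested.

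Time within a treatment moved 1 or 2 of the 5 tested genes. Aqp3, outside this fit, rose at 1000 uM from a mean of 2975 at 24 h to 10106 at 48 h. From 24 to 48 h in DMSO only Aqp7 passed among the 5 tested (0.49 ± 0.07 on the log2 scale, SE, n = 5 and 5, limma adjusted p = 5.67e-06), where 8.85% of all tested genes passed. At 60 uM it was again Aqp7 alone (0.65 ± 0.07, limma adjusted p = 2.43e-08; 10.7% of all genes). At 1000 uM Aqp7 rose by 1.29 ± 0.07 and Aqp9 fell by 0.47 ± 0.10 on the log2 scale (limma adjusted p = 1.61e-15 and 0.00106; 25.5% of all genes). With a 60th percentile filter, or without replicate 1 of 1000 uM at 48 h, Gk passed as well and the count was 3 of 5. Values for Gpd1 in DMSO (0.15, limma adjusted p = 0.0559) and Gk at 1000 uM (0.21, limma adjusted p = 0.0578) missed the threshold narrowly.

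The difference between the 48 h and 24 h effects was tested as an interaction. For 60 uM none of the 5 genes passed in limma, and at an unadjusted p under 0.05 the count was also 0, with 0.151% of all genes passing. The 95% intervals for that difference were -0.25 to 0.02 for Gpd1, -0.22 to 0.34 for Gpd2, -0.18 to 0.28 for Gk, -0.04 to 0.36 for Aqp7 and -0.47 to 0.14 for Aqp9. For 1000 uM, Aqp7 had a larger rise at 48 h by 0.80 ± 0.10 and Aqp9 a larger fall, with a difference of -0.51 ± 0.15 (SE, limma adjusted p = 7.42e-07 and 0.0274), where 10.8% of all genes passed. The Aqp9 call was lost in 7 of 29 alternatives (adjusted p up to 0.0803). Gpd2 (0.40, limma adjusted p = 0.0699), Gk (0.31, 0.0943) and Gpd1 (-0.10, 0.421) did not pass.

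**Figure D3:**
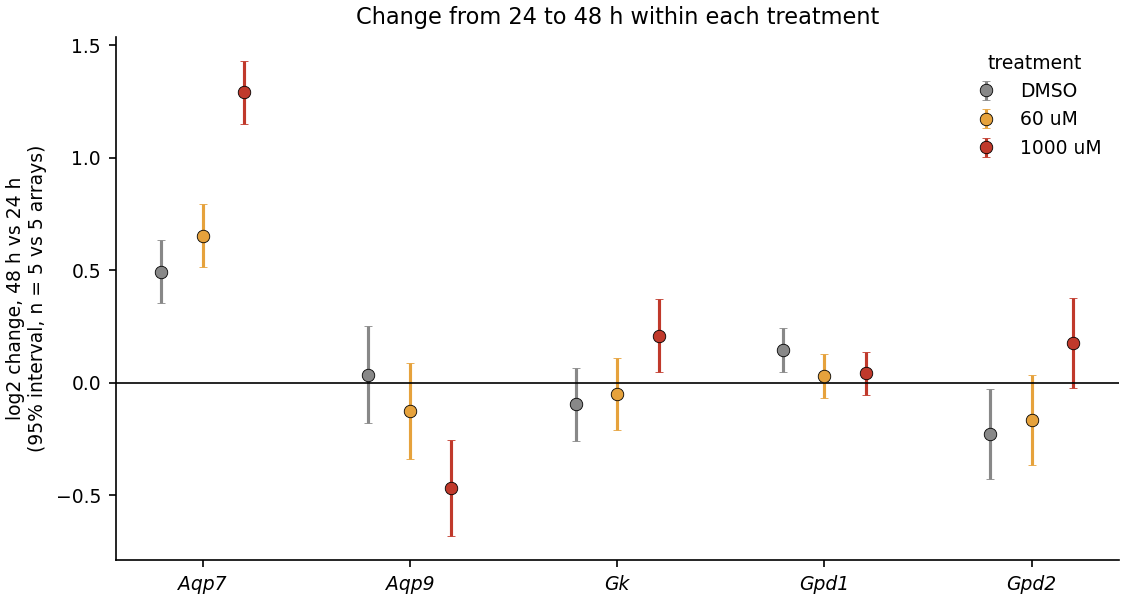
Log2 change from 24 to 48 h within DMSO, 60 uM and 1000 uM (points) with 95% intervals from limma, 5 arrays against 5, for the 5 tested genes. Aqp7 rises in all 3 treatments, from 0.49 in DMSO to 1.29 at 1000 uM, and Aqp9 falls at 1000 uM by 0.47.

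A pair of probe sets was present for each of Gk, Gpd1 and Gpd2, and they gave one direction but not one size. The dimmer Gpd1 probe set rose by 2.30 at 24 h and 1.94 at 48 h on the log2 scale at 1000 uM, above the 1.72 and 1.61 of the brighter one. The dimmer Gpd2 probe set rose by 2.02 and 2.14 at 1000 uM, and by 0.54 and 0.40 at 60 uM, below the brighter one in each case. The dimmer Gk probe set varied more within groups (SD 0.29 to 0.51 on the log2 scale, against 0.04 to 0.23). It rose by 1.05 at 60 uM and 1.95 at 1000 uM at 24 h and by 1.73 at 1000 uM at 48 h. At 60 uM for 48 h its change of 0.41 did not pass (limma adjusted p = 0.369), whereas the brighter Gk probe set did.

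**Figure D4:**
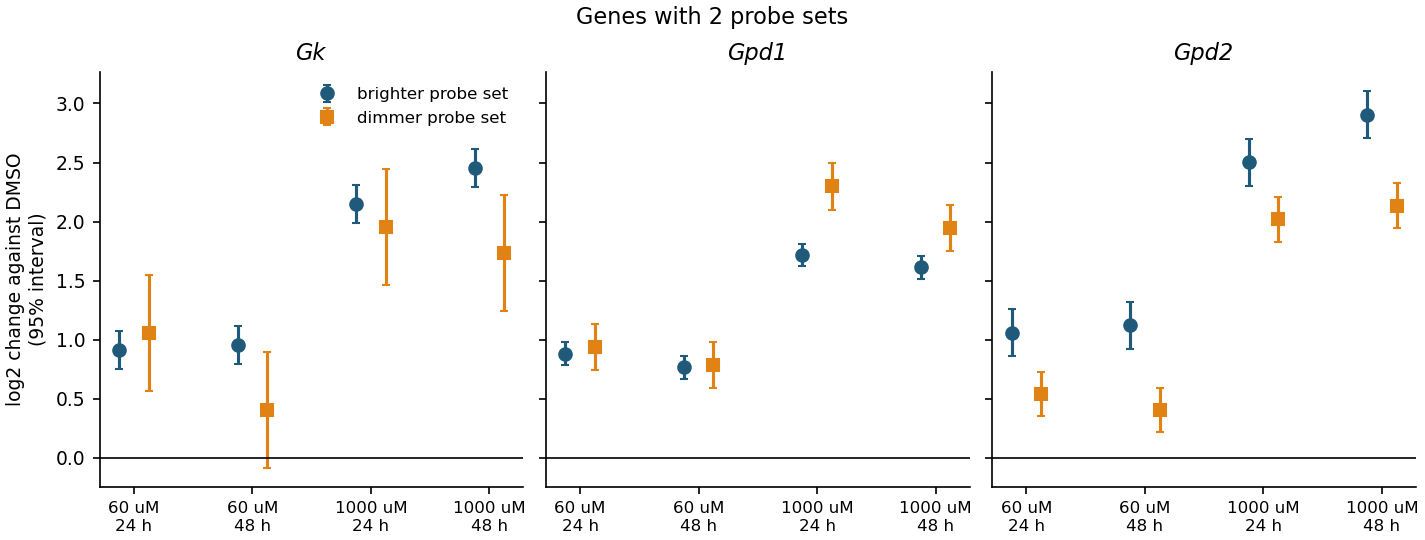
Log2 change against DMSO (with 95% intervals from limma) for the brighter (circles) and dimmer (squares) probe sets of Gk, Gpd1 and Gpd2. All points lie above 0, and the interval of the dimmer Gk probe set at 60 uM for 48 h includes 0.

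Promoter sequences were matched for 4 of the 6 genes in RefSeq (GRCr8), each as 250 bases before and 50 after the annotated start. The 250 bases before the start of Aqp3, the gene with the widest range, and Aqp9, the gene that fell, are given 5′ to 3′ on the gene's strand. Capitals mark each TATAAA and each GGGCGG (on either strand, so CCGCCC as well). Aqp3 is at chr5:61040684-61040933 and Aqp9 at chr8:80718189-80718438, both on the minus strand.
Aqp3: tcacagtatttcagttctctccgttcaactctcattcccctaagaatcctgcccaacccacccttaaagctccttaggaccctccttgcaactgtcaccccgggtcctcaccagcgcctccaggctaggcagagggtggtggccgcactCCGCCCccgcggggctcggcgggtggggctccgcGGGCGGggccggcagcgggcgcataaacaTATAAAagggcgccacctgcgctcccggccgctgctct
Aqp9: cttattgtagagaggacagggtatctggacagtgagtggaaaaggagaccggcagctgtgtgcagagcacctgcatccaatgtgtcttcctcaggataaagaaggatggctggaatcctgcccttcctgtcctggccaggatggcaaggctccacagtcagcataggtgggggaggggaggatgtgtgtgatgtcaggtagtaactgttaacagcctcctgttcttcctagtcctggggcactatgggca
The Aqp3 promoter has 1 TATAAA, which begins 38 bases before the start and is held by 14.2% of 33469 promoters of the same length, and 2 GGGCGG, a number reached by 17.0% of promoters. The Aqp9 promoter has neither, and its GC content was 53.3% against 67.3% for Aqp3 and a median of 51.7%. Gpd2 and Gk (both 72.0% GC) have 2 and 5 GGGCGG, and neither has TATAAA on either strand. The hexamer AGGTCA, a half-site bound by many nuclear receptors, was in none of the 4 on either strand and in 16.2% of all promoters. Its exact direct repeat with a 1-base spacer, the arrangement bound by PPAR-alpha with RXR, was in none of the 4 and in 0.0538% of all. Only exact letters were searched, and a string so rare could hardly be met in 4 promoters. Its absence therefore does not show that a PPAR-alpha site is lacking. A lack of these letters in so short a window says nothing about binding elsewhere.

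By the 6 group means of log2 signal, each centred on its own mean, the nearest profiles among 10626 other tested genes were found for each tested gene. Those nearest to Gpd1 were Hsdl2, Pank1 and Acot12, at root mean square distances of 0.052, 0.075 and 0.087 on the log2 scale. Nearest to Gpd2 were Crat (0.15), Gk (0.17) and Ucp2 (0.19), and nearest to Gk were Acot2 (0.10), Eci2 (0.11) and Crat (0.15). Aqp9 had Tap1 (0.067), Amotl2 (0.068) and Tpm4 (0.069). Aqp7 had the most distant neighbours, Cxcl12 (0.25), Cyp17a1 (0.26) and Acadm (0.27), over a range of 3.22 between its lowest and highest group means.

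The genes of the neighbouring steps were counted from lists, which were also chosen with earlier results of these data known. The counts are read against the share of all tested genes that passed in either direction, which was 8.32% at 60 uM and 33.9% at 1000 uM for 24 h, and 11.5% and 43.9% for 48 h. The lipase list held 11 genes of fat breakdown, not all of which free glycerol themselves, and all 11 were tested. At 24 h 6 rose and 1 fell at 60 uM, and 7 rose and 1 fell at 1000 uM. At 48 h 6 rose and 1 fell at 60 uM, and 9 rose and none fell at 1000 uM. The median change was 0.23, 0.58, 0.36 and 1.25 on the log2 scale in that order, against medians of -0.06 to -0.01 over all genes. Monoacylglycerol lipase (Mgll), which frees the glycerol itself, rose by 1.71 at 24 h and 2.16 at 48 h at 1000 uM. The carboxylesterase Ces1d rose by 1.75 and 1.83, and adipose triglyceride lipase (Pnpla2), which takes the first fatty acid, by 1.71 and 1.63. All 3 also rose at 60 uM, by 0.44 to 1.02 at 24 h.

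Of 16 genes of glycerol-3-phosphate acylation and triglyceride synthesis, 15 were on the array and 11 were tested, and they split. At 1000 uM 4 rose, 2 fell and 5 did not pass at each time, and at 60 uM 2 rose and 1 fell at each time. The 6 of 11 that passed at 1000 uM stand beside 33.9% and 43.9% of all genes, and the list medians were 0.01 to 0.06. Dgat1, which adds the last acyl chain of triglyceride, rose by 1.56 at 24 h and 1.83 at 48 h at 1000 uM, and Agpat2, which acylates lysophosphatidic acid, by 0.67 and 0.99. Lpin1, the phosphatidate phosphatase, fell by 0.95 and 0.74 on the log2 scale.

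Around triose phosphate, 8 of 11 genes were tested (9 were on the array), of which 3 rose and 1 fell at 1000 uM for 24 h and 2 rose in each of the other 3 comparisons with DMSO (list medians -0.06 to 0.15). The 4 of 8 at 1000 uM for 24 h stand beside 33.9% of all genes, and the 2 of 8 at 48 h are below the 43.9% of all genes, so these counts do not set the list apart. The gluconeogenic genes Pck1 (2.42 at 24 h and 2.14 at 48 h, log2, 1000 uM) and Fbp1 (0.87 and 0.95) rose. Tkfc, which phosphorylates dihydroxyacetone, was called lower at 24 h (-0.41, limma adjusted p = 0.0225), and not with array medians centred (0.0720). With scaling to spike-in controls the triose phosphate list had 6 higher and none lower at 1000 uM for 24 h. That scaling moved the median over all tested genes from -0.06 to 0.17, and the median of the list from 0.15 to 0.38.

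Among 7 genes of the malate-aspartate shuttle, the other route for cytosolic NADH into mitochondria, 5 rose and none fell at 1000 uM at each time (list medians 0.16 and 0.37), where 33.9% and 43.9% of all genes passed. The rises were small, with Slc25a11 at 0.25 and 0.37, Slc25a13 at 0.13 and 0.48, and Got2 at 0.16 and 0.39. At 60 uM 1 passed at 24 h and 3 at 48 h, and with array medians centred 0 of 7 passed in limma at either time (3 at an unadjusted p under 0.05 at each). Gpd2 is one of several routes by which flavoproteins feed electrons to ubiquinone. A list of 8 genes of the other routes held the electron transfer flavoprotein and its oxidoreductase, the 4 succinate dehydrogenase subunits and Dhodh. Of these, 5 rose at each dose by 24 h, and 6 (60 uM) and 7 (1000 uM) by 48 h, and none fell, where 8.32% (60 uM) and 33.9% (1000 uM) of all genes passed at 24 h and 11.5% and 43.9% at 48 h. The list medians were 0.13 and 0.20 at 24 h and 0.20 and 0.52 at 48 h. Etfdh, the entry point for fatty acid oxidation, rose by 0.85 and 1.11 at 1000 uM, Etfb by 0.46 and 0.78, and Etfa by 0.26 and 0.53.

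Among 8 other aquaporins, 4 were tested, and none passed as higher in limma at either dose (1 at an unadjusted p under 0.05 at 60 uM at each time). With quantile normalization 1 was called higher at 60 uM for 48 h. With spike-in scaling 1 was called higher at 1000 uM at each time, where the median over all genes was 0.17 at 24 h and 0.11 at 48 h. The list medians at 1000 uM were -0.24 at 24 h and -0.23 at 48 h. Aqp8, a water channel of hepatocytes, and Aqp11 were lower at 1000 uM for 24 h (-0.65 and -0.64, limma adjusted p = 7.08e-12 and 0.000120). At 48 h Aqp8 was lower by a small amount (-0.20, limma adjusted p = 0.00268), a call lost with scaling to spike-in controls (0.770), while Aqp11 (-0.26) did not pass. With 33.9% and 43.9% of all genes called at 1000 uM, 2 of 4 at 24 h and 1 of 4 at 48 h do not set these channels apart. Aqp1, an endothelial and bile duct water channel, had values of 0.16 and 0.30 that did not pass, and with spike-in scaling it was called at 48 h (limma adjusted p = 0.0439).

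**Figure D5:**
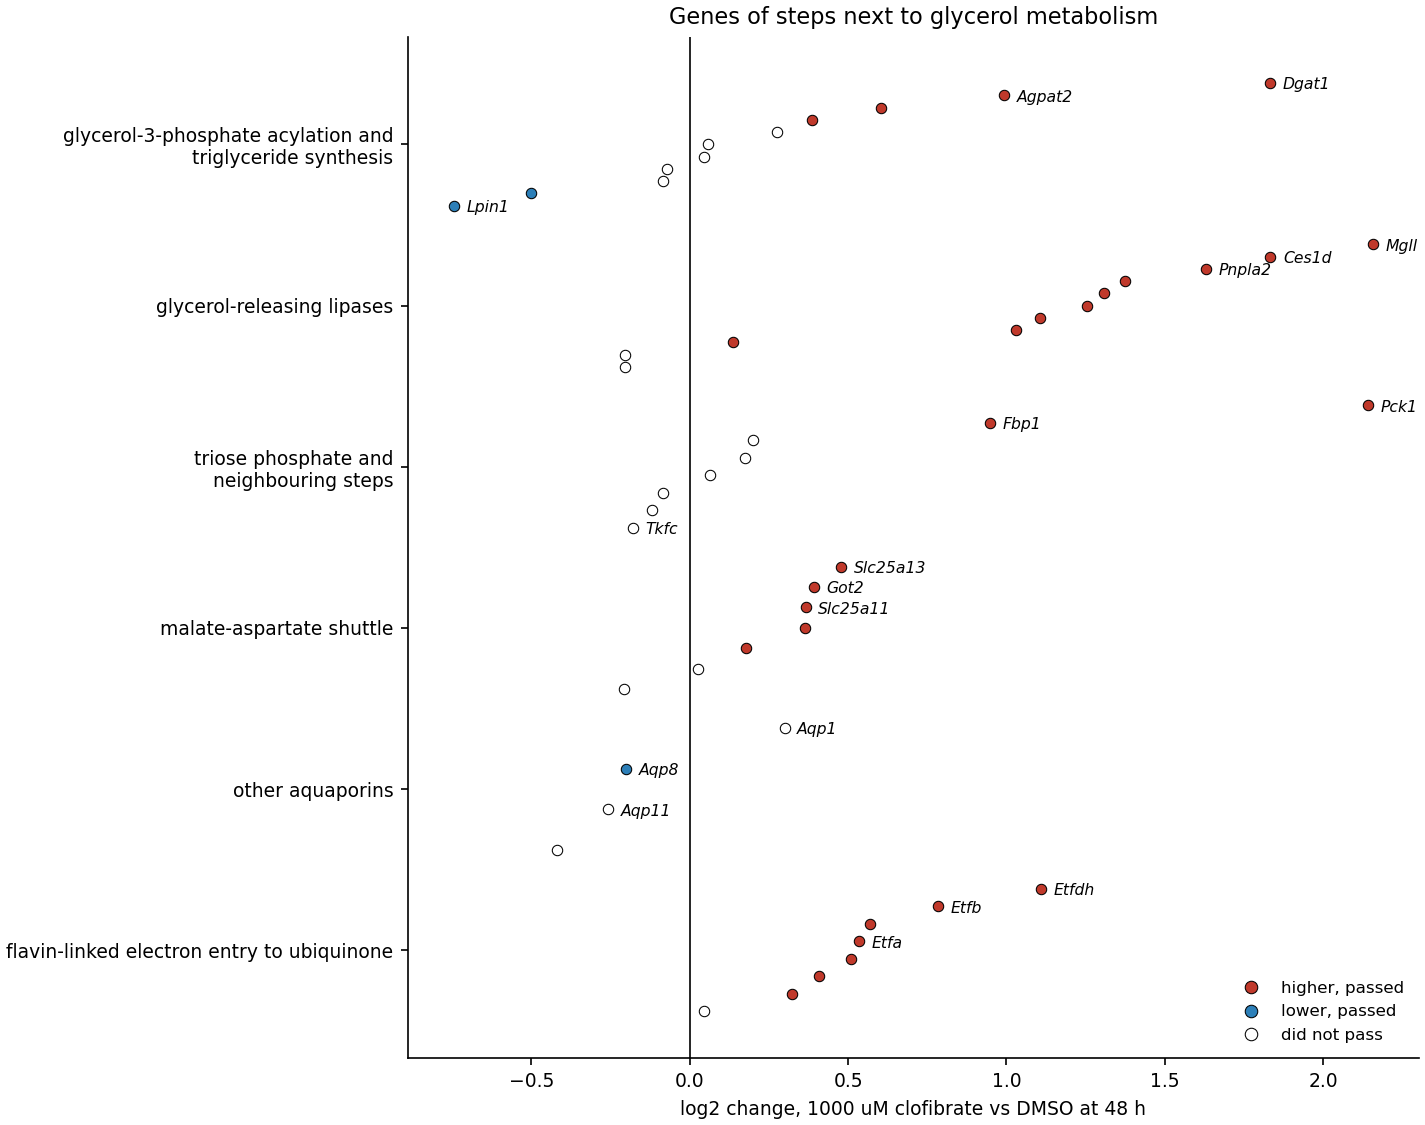
Log2 change at 1000 uM against DMSO at 48 h for each tested gene of 6 lists (points; red rose, blue fell, white did not pass limma's adjusted p of 0.05), with the named genes labelled. The genes of the lipase list and the flavin-linked genes lie mostly above 0, while the acylation genes and other aquaporins lie on both sides.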

How the data were processed

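Primary rat hepatocyte cultures were measured on 30 one-colour Affymetrix arrays, 6 groups of 5. The authors deposited a signal (linear intensity) per probe set made with MAS5, per the submitters' processing notes; its version and target value are not given there. Of 31042 non-control probe sets, 20832 had 1 gene symbol, 436 several and 9774 none. Log2 of the deposited intensity, with no constant, was fitted in limma 3.58.1 (R 4.3.3) with a mean per group and an intensity trend. Tests covered the 18625 probe sets whose mean log2 signal exceeded the 40th percentile, with Benjamini-Hochberg adjustment within each of 11 comparisons, at 0.05. The code was tested on simulated data. A gene is represented by its brightest tested probe set. From each pathway list up to 3 genes with the largest change at 1000 uM were named, called ones first, and for each tested gene the 3 nearest profiles. The genes and lists were chosen with earlier results of these data known. Alternatives covered scaling, filter, constant, trend, arrays fitted, probe set and single arrays left out; scaling of the pathway lists and a block on sets of array numbers were added after seeing the data. Promoters come from RefSeq (GRCr8).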

Additional observations from a re-analysis of the deposited data

Results flagged for a closer look

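On the Aqp3 probe set, replicate 2 at 60 uM for 48 h had a signal of 44, the lowest of its group, and its gap to the next array was 0.714 of the group's range, above Dixon's limit for 5 samples. It was 1 of 36 gene and group combinations checked, and chance marks about 1 in 20. The effect of 1000 uM on Aqp7 differed between the times, being larger at 48 h by 0.80 on the log2 scale (limma adjusted p = 7.42e-07). The effect on Aqp9 differed by -0.51 (limma adjusted p = 0.0274), a deeper fall at 48 h.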

How the results depend on the processing

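Of 1178 alternative values for the changes of the 5 tested genes, 1141 stayed on their side of the threshold, 22 lost the call and 15 gained one. No called value changed sign, and 19 uncalled ones did, all of them in comparisons between times or of effects between times. From 24 to 48 h in DMSO, the count of genes that passed went from 1 to 2 with quantile normalization, scaling to poly-A spike-in controls and the 60th percentile filter, and was 1 to 2 when single arrays were left out (Gpd1 added without DMSO 24 h replicate 1 or DMSO 48 h replicate 2). At 60 uM it went from 1 to 2 with no filter, through Aqp3. At 1000 uM it went from 2 to 4 with only the arrays compared, through Gpd2 and Gk, to 3 with no filter (Aqp3) or the 60th percentile filter (Gk), and was 2 to 3 with single arrays left out. The count for the difference between the 1000 uM effects went from 2 to 1 with spike-in scaling (Aqp9 adjusted p = 0.0803 in limma). It was 1 to 3 with single arrays left out: Aqp9 was lost without DMSO 24 h replicate 1 or 2, 1000 uM 24 h replicate 1 or 48 h replicate 2, or DMSO 48 h replicate 1 or 5, and without DMSO 24 h replicate 2 Gpd2 and Gk passed, which made 3 with Aqp7. Gpd2 also passed there without DMSO 48 h replicate 2 and Gk without DMSO 48 h replicate 4, and the rise of Gk with time at 1000 uM passed without 1000 uM 48 h replicate 1. The Aqp9 call at 60 uM for 24 h was lost with 3 other scalings, no filter, no trend, only the arrays compared and without DMSO 24 h replicate 1, 3, 4 or 5 or 60 uM 24 h replicate 1, 2 or 5. Aqp9 between 1000 and 60 uM at 24 h was lost with spike-in scaling (adjusted p = 0.0753 in limma). The cause was not tested. With spike-in scaling, the median change over all tested probe sets went from -0.05 to 0.18 (log2) at 1000 uM for 24 h, from -0.03 to 0.10 at 60 uM for 24 h, from -0.04 to 0.12 at 1000 uM for 48 h and from -0.01 to 0.14 for time in DMSO. Aqp3 in vehicle is limited by the floor. The labels give no replicate numbers, but each set of 6 running array numbers holds 1 array of every group. Deviations of same-set arrays from their group means had mean correlations of -0.0078 to 0.023 per set. For pairs from different sets and different groups the mean correlation was -0.0024. Among the 5 sets, 11 of 30 arrays correlated best with their own, and whether chance gives as many was not tested. On the dimmer Gpd1 probe set, replicates 1 and 2 were the lowest arrays of each group. In DMSO at 24 h they were 1930 and 1825, against 2158 to 2367 for the others. What a set shares is not known, and the fit used for the results does not pair the wells. With these sets as a replicate block, an alternative added after seeing the data, the count for time in DMSO went from 1 to 2 (Gpd1) and that at 1000 uM from 2 to 3 (Gk), and no other count of the 5 genes moved.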
